A study of Mus musculus with 6 samples.

Results

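The 8 genes Ebf1, Pax5, Tcf3, Ikzf3, Irf8, Lef1, Cd22 and Blk, regulators and signalling genes of the B lymphocyte lineage, were chosen by their names among the genes that had a differentially methylated cytosine in LSK cells lacking Tet1, 8 of 3344 such genes. The authors' deposited tables held 24 cytosines for them, out of 6756 in all. LSK cells are lineage-negative, Sca-1-positive, Kit-positive bone marrow cells, the fraction that holds haematopoietic stem and early progenitor cells. They were flow-sorted from mice aged 6 months, of a strain written CD57BL/6 in the labels, with 3 samples labelled WT and 3 labelled Tet1 KO. The labels name no other allele or treatment, and give neither the kind of Tet1 allele nor whether each sample came from a separate mouse. Cytosine methylation was read by enhanced reduced representation bisulfite sequencing, which favours CpG-rich DNA and does not separate 5-methylcytosine from 5-hydroxymethylcytosine.

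B cells arise from lymphoid progenitors in a fixed order of transcription factors. Tcf3, whose products E12 and E47 are the E2A proteins, and Ebf1 start the programme, and Pax5 commits cells to it. Ikzf3, Irf8 and Lef1 act as the cells pass through the pro-B and pre-B stages and beyond, while the kinase Blk and the inhibitory receptor Cd22 shape signals from the B cell receptor. Tet1 is a dioxygenase that oxidises 5-methylcytosine, a step on the way to its removal. Methylation near starts and enhancers is in general linked to a closed state of a gene, but no transcript level was measured in these libraries, so nothing about expression follows from the values given here.

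All 24 cytosines of the 8 genes stood in the hypermethylated table of the authors and 0 in the hypomethylated table. Hypermethylated is read here as higher methylation in the Tet1 knockout, from the table names and signs. Over all listed cytosines 92.8% were hypermethylated, so a set of this size with none in the other table lies close to the background and says little about these genes. Every difference given below for a cytosine is the value of the authors' deposited table, 1 per cytosine, in percentage points, with no value per sample. Coverage and p-values were not used here either, so depth is unknown and no spread between samples can stand beside a difference. Because listed cytosines chose the genes, the values below are descriptions and were not tested. A site takes its gene name from the nearest annotated transcription start, which need not be the gene that it acts on.

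The median difference over the 24 cytosines was 39.9 percentage points per the authors' deposited table, beside 41.1 for all 6270 hypermethylated cytosines. The members' differences ran from 27.6 at Irf8 to 87.5 at Lef1, and those of the whole table from 25.0 to 97.6. At least 40 percentage points were reached by 12 of the 24 cytosines (50.0%), against 53.4% of the whole table. At least 60 percentage points were reached by 5 of the 24 (20.8%), against 12.3%, at Lef1, Cd22, Blk and, with 2 cytosines, Tcf3. Genes with 2 or more listed cytosines numbered 7 of the 8, all but Cd22, whereas 41.8% of all listed genes had that many. At Tcf3 and Ikzf3 these cytosines formed 1 cluster each, of 43 and 236 bp, so the count is not one of separate places. It was not tested.

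**Figure D1:**
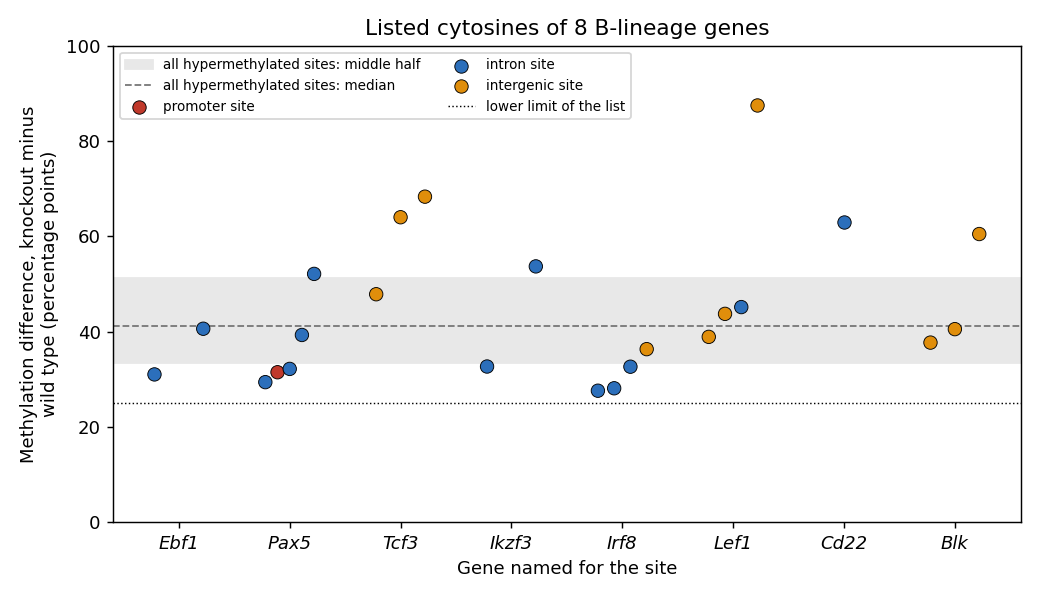
Methylation difference (knockout minus wild type, percentage points, vertical axis) of each listed cytosine at the 8 genes (horizontal axis), with points coloured by the annotated feature. The dashed line marks the median of all hypermethylated cytosines, 41.1, the grey band their 25th to 75th percentile (33.3 to 51.3) and the dotted line the lower limit of the list at 25. All 4 Irf8 points lie below the dashed line, all 3 Tcf3 points above it, and 1 Lef1 point stands alone at 87.5.

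By place, the sites of these genes lay mostly in introns and between genes, and by their median far from starts, though not at every gene. Introns held 13 of the 24 cytosines (54.2%) and intergenic sequence held 10 (41.7%), against 31.3% and 36.1% of all hypermethylated cytosines. A single cytosine lay in a promoter (4.17%, against 11.2%). Exons held 0, while 19.6% of the whole table was exonic. The median distance to the start of transcription was 51809 bp, beside 6842 bp over the whole table, and 8 of the 24 (33.3%) lay more than 100 kb away, against 10.3%. Only Pax5 and Irf8 had a listed cytosine within 1000 bp of the start, 4 cytosines in all (16.7%, against 26.3% of the whole table). Leaving out Pax5, which had the most sites, brought the median distance down to 30381 bp. For the 10 cytosines of Ikzf3, Irf8 and Lef1 it was 5461.5 bp, below that of the whole table, and the Cd22 cytosine lay at 5423 bp.

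**Figure D2:**
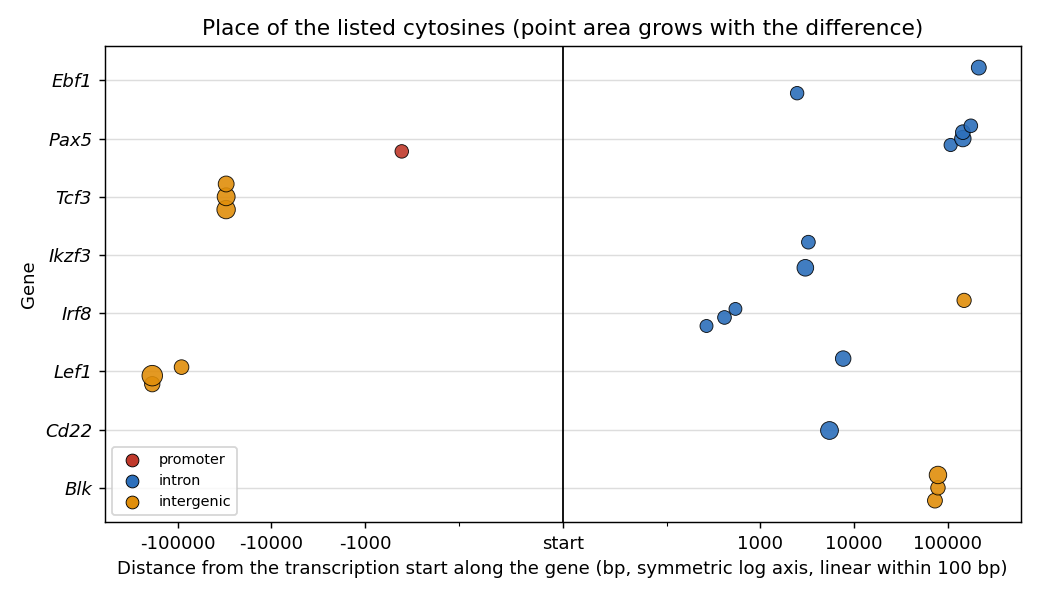
Distance of each listed cytosine from the transcription start, along the direction of the gene (horizontal axis, bp, symmetric logarithmic), for the 8 genes (rows). Points are coloured by feature and their area grows with the difference. Tcf3 sites lie upstream only, Lef1 sites on both sides, and the Irf8 intron sites 266 to 542 bp downstream of the start.

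The promoters of these genes differed in CpG content. RefSeq windows (GRCm38.p6) were found for 6 of the 8 genes, Ikzf3 and Blk being unmatched. The 250 bases before the start are printed for Pax5 and Irf8, since these had cytosines near the start. Those of Cd22, with the fewest CpGs among the windows of the 6 genes, are printed as a contrast. All run 5′ to 3′ on the strand of the gene, with every CpG in capitals. The windows lie at chr4:44710695-44710944 (minus strand), chr8:120736108-120736357 (plus strand, the first of 2 listed starts) and chr7:30879029-30879278 (minus strand).
Pax5: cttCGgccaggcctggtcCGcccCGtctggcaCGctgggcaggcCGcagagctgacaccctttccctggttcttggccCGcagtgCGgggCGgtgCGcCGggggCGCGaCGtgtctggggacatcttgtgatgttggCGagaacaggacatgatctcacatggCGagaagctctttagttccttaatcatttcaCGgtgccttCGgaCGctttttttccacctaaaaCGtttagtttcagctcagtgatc
Irf8: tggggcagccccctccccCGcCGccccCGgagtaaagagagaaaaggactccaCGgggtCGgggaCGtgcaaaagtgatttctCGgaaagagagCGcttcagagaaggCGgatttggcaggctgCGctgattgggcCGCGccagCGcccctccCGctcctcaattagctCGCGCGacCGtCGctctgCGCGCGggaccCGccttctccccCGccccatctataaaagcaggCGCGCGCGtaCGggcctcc
Cd22: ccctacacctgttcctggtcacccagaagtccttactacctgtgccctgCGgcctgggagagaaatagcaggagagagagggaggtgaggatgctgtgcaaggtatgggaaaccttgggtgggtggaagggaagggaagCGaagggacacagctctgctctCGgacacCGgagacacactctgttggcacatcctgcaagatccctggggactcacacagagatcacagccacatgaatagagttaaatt

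The window at the first start of Irf8 held 29 CpGs, more than 93.2% of the 32851 windows in the table, and that at its second start, 2281 bp farther on, held 8, more than 57.0%. That of Pax5 held 19, more than 80.3% of windows, and that of Cd22 held 4, more than 37.8%. The median over all windows was 6. Ebf1 had 9 and 14 at its 2 starts, Lef1 had 11, 14, 6 and 5 at its 4 starts and Tcf3 had 18 at its single one. The letters CCGG, which read the same on both strands and contain a CpG, are the recognition site of MspI, the usual enzyme of reduced representation libraries. They occurred in 47.1% of all windows and in 5 of the 11 windows of the 6 genes, among them those of Pax5, Irf8 and Cd22 printed above. The listed cytosines were not placed in these windows: their distances, 405 bp before the Pax5 start and 266 bp after the Irf8 start at the nearest, are from starts in mm9 that were not matched to the RefSeq starts.

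**Figure D3:**
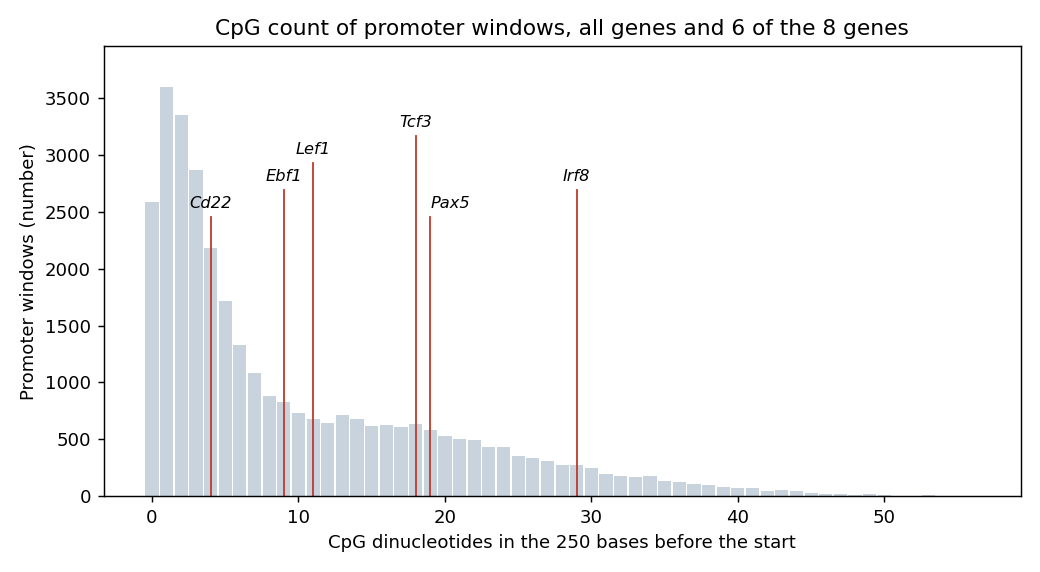
Number of promoter windows (vertical axis) by their count of CpG dinucleotides in the 250 bases before the start (horizontal axis), over all 32851 windows, with red lines at the first window of 6 of the 8 genes. Irf8 stands at 29 CpGs, Cd22 at 4.

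Among the factors that specify the lineage, Ebf1 (early B cell factor 1, Entrez Gene 13591, chromosome 11) had 2 hypermethylated cytosines, both in introns of its own transcript. At 44434106 (mm9), in intron 2 of 15 and 2470 bp after the start, the deposited difference was 31.0 percentage points. This was the single cytosine of the 8 genes that the files place in a CpG island. The other, at 44646795 in intron 6 of 15 and 215159 bp after the start, differed by 40.6 percentage points per the authors' deposited table. No listed cytosine of another gene lay between them or within 100 kb of either.

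Pax5 (paired box gene 5, Entrez Gene 18507, chromosome 4), which holds B cells to their fate, had the most sites of the 8 genes, 5 cytosines spread over 177362 bp. Its promoter cytosine, at 44723717 and 405 bp before the start, differed by 31.5 percentage points per the authors' deposited table. The other 4 were in the last introns of the gene. At 44615646, in intron 7 of 9, the deposited difference was 29.4 percentage points. A pair in intron 8 lay 119 bp apart on opposite strands, at 44577857 and 44577976, with 39.3 and 52.1 percentage points. The cytosine in intron 9, at 44546355 and 176957 bp from the start, differed by 32.2 in the deposited table. So 1 of the 5 Pax5 values passed 41.1, the median of the whole table, and the promoter value was not the largest.

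Another pair of hypermethylated cytosines downstream of Pax5 is named for Melk, a kinase gene that follows Pax5 on the chromosome. They lay 207978 and 221601 bp after the Pax5 start, with 27.7 and 46.5 percentage points per the authors' deposited table. The first was only 6433 bp nearer to the Melk start than to the Pax5 start, so the name it bears rests on a small margin.

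Tcf3 (transcription factor 3, Entrez Gene 21423, chromosome 10) had 3 cytosines within 43 bp, on the forward strand, 30376 to 30419 bp before the start. Their differences were 47.9, 64.0 and 68.4 percentage points per the authors' deposited table, at 79926774, 79926779 and 79926817. Their mean, 60.1, was the highest among the 7 genes with more than 1 cytosine. The files put the cytosine at 79926817 in a SINE repeat (PB1D9) and call all 3 intergenic. They lie between Tcf3 and Onecut3, a homeobox gene and the neighbour upstream. One more hypermethylated cytosine, 529 bp farther along at 79927346, differed by 38.5 and is named for Onecut3, 30305 bp away, rather than Tcf3, 30948 bp away. The cluster thus sits about midway between the starts of both genes, and the margin that gives the farther cytosine to Onecut3 is 643 bp.

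Among the later factors, Ikzf3 (Aiolos, a zinc finger protein of the Ikaros family, Entrez Gene 22780, chromosome 11) had 2 cytosines in intron 1 of 7, both on the reverse strand and 236 bp apart. At 98404086, within a SINE repeat of the B2 family, the deposited difference was 32.7 percentage points. At 98404322, outside the repeat and 3023 bp after the start, it was 53.7 percentage points.

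Irf8 (interferon regulatory factor 8, Entrez Gene 15900, chromosome 8), which acts in B cells as well as in dendritic cells and monocytes, had the lowest mean of the 8 genes, 31.2 percentage points over its listed cytosines. In intron 1 of 8, the cytosines at 123260542, 123260690 and 123260818 lay 266, 414 and 542 bp after the start. They differed by 28.1, 32.7 and 27.6 percentage points per the authors' deposited table, 2 of them on the reverse and 1 on the forward strand. Both strands and 3 positions over 276 bp thus gave values close to each other and to the lower limit of the list. The other cytosine, at 123410191 and 149915 bp after the start, was intergenic and differed by 36.3. The next coding gene in that direction is Foxf1, a forkhead factor gene.

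Lef1 (lymphoid enhancer binding factor 1, Entrez Gene 16842, chromosome 3), a Wnt pathway factor expressed in early B and T cells, had 4 cytosines, all on the reverse strand. Upstream of the gene, a pair 41 bp apart at 130626349 and 130626390 differed by 43.8 and 87.5 percentage points per the authors' deposited table. The value of 87.5 was the highest of the 24 and ranked 21 among the 6270 hypermethylated cytosines. Another, at 130722365 and 91024 bp before the start, differed by 38.9. The last, in intron 3 of 11 at 130821053 and 7664 bp after the start, differed by 45.2. The 4 were spread over 194704 bp, and the Lef1 values other than 87.5 lay between 38.9 and 45.2. A hypomethylated cytosine named for Rpl34-ps1, a ribosomal protein pseudogene, lay 95584 bp beyond the upstream pair (-49.6 percentage points per the authors' deposited table). It was the only hypomethylated cytosine of another gene within 100 kb of the sites and starts of the 8 genes.

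Of the signalling genes, Cd22 (a sialic acid binding receptor that restrains B cell receptor signals, Entrez Gene 12483, chromosome 7) had 1 cytosine, at 31658624 in intron 6 of 15, 5423 bp after the start. It differed by 63.1 percentage points per the authors' deposited table, the highest of the 13 intron values. With a single cytosine listed, no neighbouring value shows whether the stretch around it moved.

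Blk (B lymphoid kinase, a Src family kinase, Entrez Gene 12143, chromosome 14) had 3 intergenic cytosines, all on the forward strand and 73198 to 78835 bp after the start. The pair at 63957189 and 63957196, 7 bp apart, differed by 60.5 and 37.7 percentage points per the authors' deposited table. The files place that pair in a BC1 repeat, so these values are uncertain to the extent that reads of repeats map to several copies. The cytosine at 63962826, outside repeats, differed by 40.5. The next coding gene on that side is Gata4, an endoderm and heart factor gene.

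Split by whether a site lay inside the transcript or promoter of its own gene, the members had unlike medians. The 14 inside cytosines, of 6 genes, had a median of 32.7 percentage points and a range of 27.6 to 63.1, and 5 of them reached 40. The 10 outside, of 4 genes, had a median of 45.8 and a range of 36.3 to 87.5, and 7 reached 40. The ranges overlapped. This split was added after the data were seen and was not computed for the whole table. A split by feature is nearly the same one, not a second result. The 10 outside cytosines are the 10 intergenic ones, and the 14 inside are the 13 in introns and the Pax5 promoter cytosine. By feature, the members had medians of 32.7 in introns and 45.8 in intergenic sequence. Over the whole hypermethylated table these were 39.5 and 40.6. Counted by cytosine, the gap among the members was wider, but it depends on clusters and was not tested. The 10 outside cytosines include the 3 of the Tcf3 cluster and pairs at Lef1 and Blk. The 14 inside include 3 at Irf8 over 276 bp (27.6 to 32.7 percentage points) and close pairs at Ikzf3 and Pax5. Cytosines of a cluster are not independent measurements. The region means of these inside clusters were 29.5 at Irf8, 43.2 at Ikzf3 and 45.7 at Pax5. Those outside were 60.1 at Tcf3, 65.6 at Lef1 and 49.1 at Blk. Medians by feature with 1 value per region were not computed.

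Neighbouring cytosines on the same strand less than 50 bp apart, the length of a read, can be read by the same molecules. The 8 genes had 4 such pairs, and gap here means the difference of one cytosine less that of the other. At Lef1 the pair 41 bp apart had a gap of 43.8 percentage points per the authors' deposited table, and 4 of the 1803 such pairs in the whole hypermethylated table had a larger gap. The median gap over the 1803 pairs was 7.70 percentage points, and the 75th percentile was 13.8. The Blk pair in the BC1 repeat, 7 bp apart, had a gap of 22.8, exceeded by 8.21% of pairs. At Tcf3 the gaps were 16.2 and 4.32 percentage points. The reads and coverage behind these values were not used here, so the source of the gaps was not tested.

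**Figure D4:**
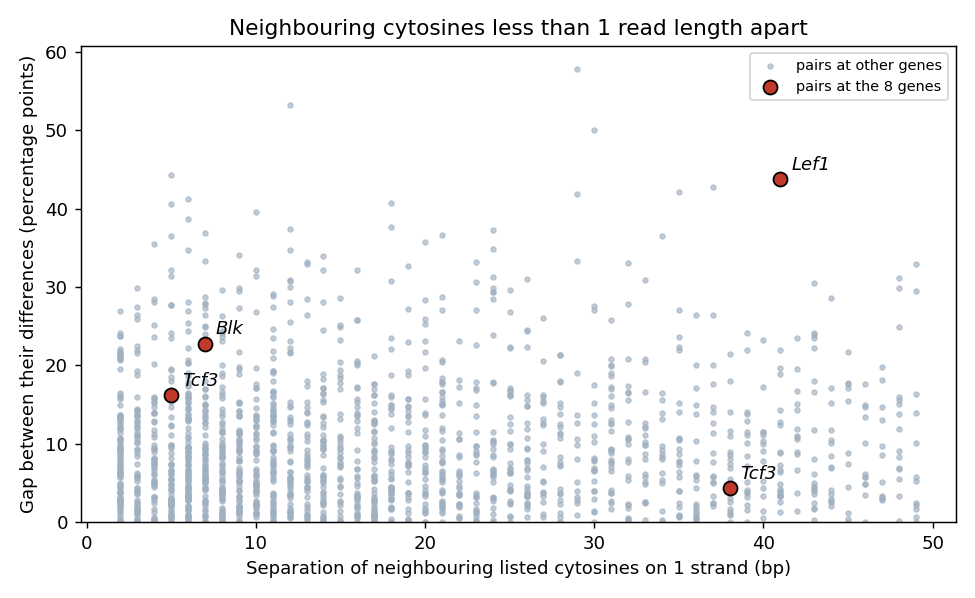
Gap between the differences of neighbouring listed cytosines on the same strand (percentage points, vertical axis) by their separation (bp, horizontal axis), for 1803 pairs in the hypermethylated table. Red points are the 4 pairs at Lef1, Blk and Tcf3, and the Lef1 pair lies at a gap of 43.8.

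Other genes of the B lineage were listed in both directions. A further 72 genes made up a list of early B factors, pre-B receptor and recombination genes, B receptor signalling genes and mature B or plasma cell regulators. Of these, 8 (11.1%) had a listed cytosine, beside 13.7% of the 21896 protein-coding genes of the reference. The members, chosen because they were listed, are left out of the 72, which lowers this share. With them it was 16 of 80 genes (20.0%), which the choice of members raises, and neither share was tested. Per the authors' deposited tables, hypermethylated cytosines alone were found at 4 of the 8 further genes, against 87.0% of all listed genes. A hypomethylated one was found at 4, against 13.0%. Over members and further genes together, 12 of the 16 listed genes had hypermethylated cytosines alone and 4 had a hypomethylated one. Members and further genes were separated with earlier results of these data known, so the contrast between them depends on that choice. With so few genes, and with 7 of the 8 further genes resting on a single cytosine, the counts are a description and were not tested. Of the 64 others, including all 10 pre-B receptor and recombination genes and all 13 mature regulators, none was listed. In groups that small a share near that of all coding genes would be 1 or 2 genes, and coverage was not used here.

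Among the early factors in that list, Tcf7, the Lef1 relative of T cells, had 1 hypermethylated cytosine 32014 bp before its start (33.3 percentage points per the authors' deposited table). Zeb2 had 1 at 126388 bp before its start (51.1 percentage points). Tcf4, an E protein gene related to Tcf3, had 1 hypomethylated cytosine (-44.0 percentage points), 159890 bp before its start. The sites named for Tcf3 and Tcf4, which encode partners of the same kind, were thus listed in opposite directions. This rests on 1 cluster about midway between the starts of Tcf3 and Onecut3 and on 1 distant intergenic cytosine. It need not reflect either gene.

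Among signalling genes, Cd40, the receptor for T cell help, had 1 hypermethylated intron cytosine (56.1 percentage points per the authors' deposited table). Prkcb, the kinase that links the receptor to NF-kB, had 2, in introns 2 and 5 of 16 (25.1 and 42.3 percentage points). The other 3 listed signalling genes stood in the hypomethylated table. Dok3, an adaptor that restrains B receptor signals, had -56.8 percentage points in exon 4 of 5. Pik3ap1, the adaptor BCAP, had -34.6 at 64680 bp before its start. The cytosine named for Pik3cd, the catalytic PI3K subunit of leukocytes, had -74.7 in the authors' deposited table but lay in exon 19 of 19 of Clstn1.

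**Figure D5:**
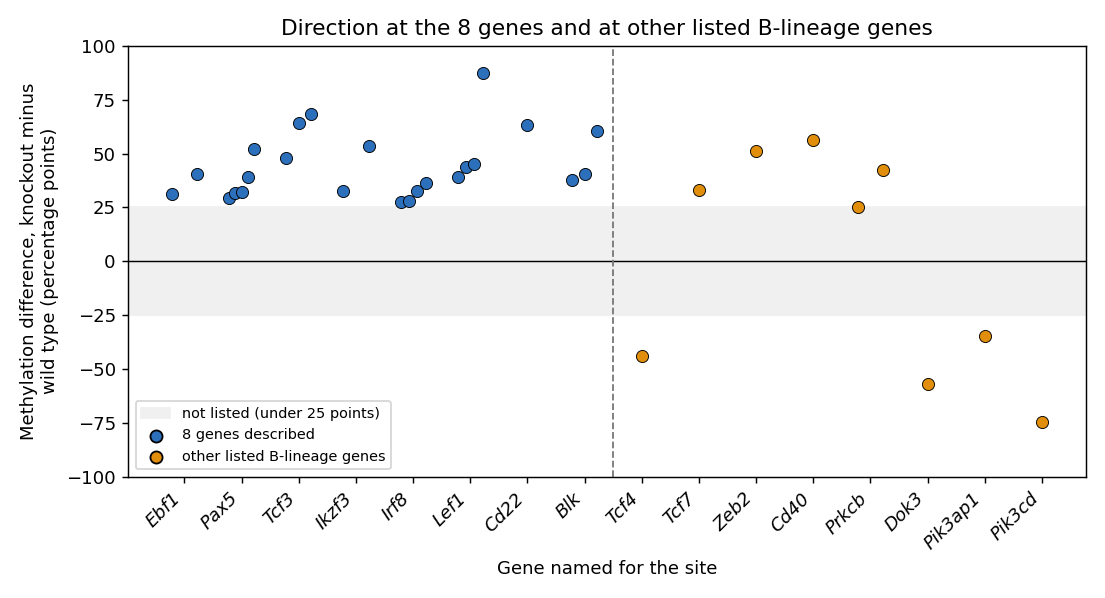
Methylation difference of each listed cytosine (knockout minus wild type, percentage points, vertical axis) at the 8 genes described, in blue, and at 8 other listed B-lineage genes, in orange. All 24 blue points are above 0, while Tcf4, Dok3, Pik3ap1 and Pik3cd have a point below 0.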

How the data were processed

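Genomic DNA of 6 samples, 3 wild type and 3 Tet1 knockout, was bisulfite-converted and read as 50 bp single ends, per the labels' protocols. The submitters' processing notes name Bismark and mm9. How differences were called, at what coverage and q-value, and whether replicates were pooled is not given in the sources used here. Both deposited tables list cytosines with a difference of at least 25 percentage points, a limit read from the table names. Their headers name the difference and the distance to the nearest start. There were 0 columns of per-sample values, so no replicate error, interval or test was computed. The direction, knockout minus wild type, was read from the table names and signs, and no sample means were there to check it.

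Rows were taken by gene name with pandas 2.3.3 under Python 3.11.15. The sign of a distance follows the strand of the cytosine; with it corrected, 99.8% of 949 transcripts with several sites gave 1 start. Regions are runs of sites of 1 gene with gaps under 1000 bp, a step checked on simulated data. Gene order, transcript names and promoters came from RefSeq (GRCm38.p6), whose positions were not used to place the mm9 sites. The genes named are the 8 members and every listed gene among 72 others of the lineage. Members and lists were chosen with earlier results of these data known. Alternatives were 40 percentage points, the forward strand, 100 kb, other joining widths, regions or genes as units, and leaving out Pax5; transcript-only and repeat-free sets were added after the data were seen.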

Additional observations from a re-analysis of the deposited data

How the results depend on the processing

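The count of 24 hypermethylated cytosines became 12 at 40 percentage points, 12 on the forward strand alone and 14 inside a transcript or promoter of the gene, as each leaves fewer sites. It was 16 within 100 kb and 20 without repeats. These settings only take sites away, so none could bring in a hypomethylated cytosine. The median difference of 39.9 percentage points was 40.6 over regions, on the forward strand or without Pax5, 44.7 with 1 value per gene and 32.7 inside the gene alone. The median distance was 54605 bp with 1 value per gene and 30381 bp without Pax5. The 16 regions became 17 when joined within 200 bp. Of the other B-lineage genes, 6 stayed listed at 40 percentage points and 6 within 100 kb. No paired analysis was possible because the tables hold no value per sample, and for the same reason no sample could be left out. Cytosines below 25 percentage points are absent from the tables, and coverage is unknown, so a gene without a listed cytosine is not shown to be unchanged.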

Other observations

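None of the 24 cytosines had the other cytosine of its CpG, on the opposite strand, in the hypermethylated table. For comparison, 1.82% of all hypermethylated cytosines did, so this too lies near the background. The files label repeats at intron and intergenic cytosines alone. Of the 23 such cytosines of the 8 genes, 4 lay in repeats (17.4%), at Blk, Ikzf3 and Tcf3, against 10.6% of the 4227 in the hypermethylated table. Without them the median difference was still 39.9 percentage points.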
